A study of Rattus norvegicus with 2 samples.

Results

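The genes described here are Spp1, which encodes osteopontin, and Cd44, which encodes one of its receptors, in single cells of rat cartilage. They are 2 of the 18147 genes listed for both libraries of the study. Both were chosen because earlier results of these libraries placed them in gene lists of both, so their levels are given as a description and carry no test. One library came from Lewis rats that had been given complete Freund's adjuvant together with type II collagen, a model of inflammatory joint disease known as collagen-induced arthritis (CIA), and the tissue was taken on day 14. The other came from control Lewis rats that received no treatment by the sample label and are called sham animals in the study's design text. Tissue of both groups was labelled cartilage, digested with the recombinant enzyme TrypLE and run on the Chromium 3′ kit, version 2. The joint, age, sex and number of animals pooled in each library were not stated in the sources used. With 1 library per group there were no replicates, so the values compare these libraries rather than the conditions. Intervals cover counting error alone.

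Osteopontin is a secreted, heavily phosphorylated glycoprotein of bone matrix that is also made by activated macrophages. Its arginine-glycine-aspartate motif binds integrins, among them the integrin of alpha v and beta 3 chains on osteoclasts, and proteases such as thrombin and matrix metalloproteinases cut it next to that motif. CD44 is a transmembrane glycoprotein whose main ligand is hyaluronan, the large sugar polymer of synovial fluid and cartilage matrix, and osteopontin has been described as another ligand of some CD44 isoforms. The 3′ reads do not tell the splice isoforms of Cd44 apart.

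The proximal promoters are shown because Spp1 differed far more between cell types than Cd44 did. RefSeq holds both on assembly GRCr8, and each window runs from 250 bases before to 50 bases after the annotated start, on the minus strand. Spp1 lies at chr14:5619755-5620054 and Cd44 at chr3:109699375-109699674, whereas the counts were made on mRatBN7.2 and no coordinate was converted. Capitals mark matches, on either strand, to TGNGGT and to TATAAA, the TATA box. TGNGGT is wider than the core that RUNX factors bind, which has C or T at the open position N.
Spp1: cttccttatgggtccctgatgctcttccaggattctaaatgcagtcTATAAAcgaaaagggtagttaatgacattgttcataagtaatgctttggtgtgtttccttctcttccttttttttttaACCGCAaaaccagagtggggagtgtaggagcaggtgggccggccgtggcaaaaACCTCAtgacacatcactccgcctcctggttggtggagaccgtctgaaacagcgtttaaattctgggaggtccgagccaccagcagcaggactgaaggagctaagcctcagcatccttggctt
Cd44: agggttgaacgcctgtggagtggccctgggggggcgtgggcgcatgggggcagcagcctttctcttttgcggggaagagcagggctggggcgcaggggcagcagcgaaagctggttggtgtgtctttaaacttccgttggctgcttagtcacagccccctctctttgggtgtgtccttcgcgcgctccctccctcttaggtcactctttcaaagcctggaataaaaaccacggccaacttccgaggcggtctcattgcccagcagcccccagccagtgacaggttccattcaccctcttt
The Spp1 window held 2 matches to TGNGGT, beginning at positions -126 and -73 from the start and both on the opposite strand, and 1 match to TATAAA at -204. On that strand the match at -126 reads TGCGGT and that at -73 reads TGAGGT, so only the former has the narrower RUNX core. No match overlapped another. Of 33469 rat promoter windows of this length, 47.1% held TGNGGT at least once, 14.2% held it at least 2 times and 14.2% held TATAAA. The Cd44 window held neither, and neither window held the AP-1 letters TGANTCA (7.33% of windows) or the cyclic AMP response letters TGACGTCA (1.83%). Base composition differed, with 48.7% G and C in the Spp1 window and 60.3% in the Cd44 window.

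The CIA library held 8622 cell barcodes with a median of 10541 unique molecular identifiers (UMIs, 1 per captured RNA molecule), and the control library 5456 with a median of 11873. After filters on genes, mitochondrial share and doublets, 8409 CIA and 5349 control cells were kept. Cells were sorted in silico by how many markers of a cell type they carried, without Spp1 or Cd44, and 94.0% and 90.2% of them entered a class. The labelled tissue was only partly borne out by its markers: chondrocyte gates took 0.809% of CIA and 7.33% of control cells, fibroblast gates 46.5% and 46.6%, macrophage and monocyte gates 38.3% and 22.1%, and endothelial gates 6.08% and 11.3%. The B lineage gate took 0 CIA cells and 42 control cells. The libraries had 52 barcodes in common, and leaving those cells out moved none of the ratios of CIA to control in 10 classes by as much as 1.5 times.

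Spp1 was concentrated in macrophages. In UMIs per 1000000 UMIs of the summed class (CPM) it stood at 10336 CPM in 1796 CIA and 4606 CPM in 511 control macrophages in which no complement C1q gene reached 2 UMIs (C1q-low). Macrophages in which all 3 C1q genes did, the chains of the complement component that marks resident macrophages, had 5826 CPM in 740 CIA cells and 1856 CPM in 299 control cells. Between them lay cells in which 1 or 2 of the C1q genes did, at 7805 CPM in 383 CIA and 3193 CPM in 128 control cells. Monocytes with ficolin Fcnb at 2 UMIs or more and no C1q gene at that level had 4843 CPM in 301 CIA and 754 CPM in 245 control cells. The order from C1q-low to C1q-high to Fcnb+ was thus the same in both libraries, and in each library every neighbouring pair in it was apart by more than its counting intervals. All macrophage and monocyte gates together held 91.3% of the Spp1 UMIs of the CIA library and 69.4% of those of the control library. C1q-low cells alone held 63.8% from 21.4% of the CIA cells, and 47.6% from 9.55% of the control cells. Cells that met more than 1 gate held another 3.32% and 14.9%, and those of them with high Spp1 carried macrophage markers at a median of 6.81% and 7.17% of UMIs.

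The level per cell varied over a wide range within each macrophage class. To compare cells of unequal depth, each was thinned to 4000 UMIs, which left out no cell. C1q-low macrophages then had a median of 15 Spp1 UMIs in the CIA library and 3 in the control library, with highest values of 601 and 402. Cells with 20 or more made up 44.0% of the CIA and 19.6% of the control C1q-low cells, and those with 100 or more 11.9% and 3.33%. The variance was 92.1 times the mean in CIA and 85.2 times the mean in control C1q-low cells, where pure sampling gives a ratio near 1. A few cells therefore carried much of the transcript. The top 10% of all macrophages and monocytes held 56.5% of the Spp1 UMIs of these classes in the CIA library and 74.9% in the control library. In Fcnb+ monocytes the median was 2 thinned UMIs in the CIA and 0 in the control library, and a single cell held 17.9% of the control Spp1 UMIs of that class.

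**Figure D1:**
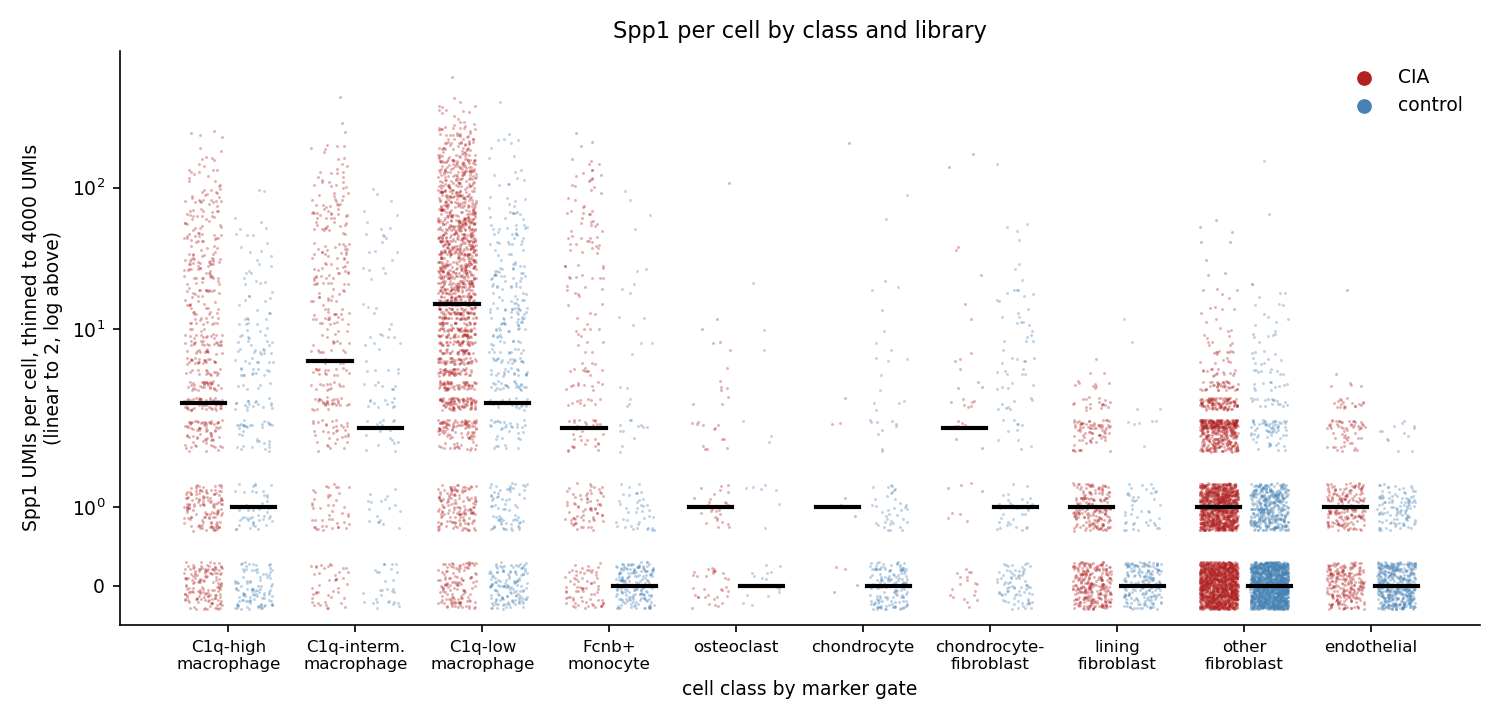
Spp1 UMIs per cell after thinning to 4000 UMIs, by marker-gated class, with CIA cells (red) left of control cells (blue), 1 point per cell with random scatter and a black bar at the median, on an axis that is linear to 2 and logarithmic above. C1q-low macrophages reach 601 UMIs in the CIA and 402 in the control library, while endothelial cells stay at or under 19 and 2.

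Endothelial cells, which are not a known main source of osteopontin, were taken as the measure of free RNA. They held 183 CPM of Spp1 in 511 CIA cells and 55.0 CPM in 606 control cells. A UMI was found in 53.4% of CIA and 20.3% of control endothelial cells after thinning, and in 81.4% and 47.7% of them before it, at median depths of 8563 and 10776.5 UMIs. None had 20 or more, and 0 of 511 and 0 of 606 cells allow shares of up to 0.587% and 0.495%, taken as 3 cells of the total. Their variance was 1.80 times the mean in the CIA and 0.968 times the mean in the control library. The Spp1 signal of endothelium was thus low and even where that of macrophages was high and uneven. Lyz2, the macrophage lysozyme, was found in the same cells at 1447 CPM in the CIA and 794 CPM in the control library, and macrophage markers took 0.185% and 0.108% of their UMIs. Per 100 Lyz2 UMIs, endothelial cells had 12.6 Spp1 UMIs (95% interval 11.8 to 13.5) in the CIA and 6.92 (6.29 to 7.61) in the control library. The sums of all kept cells gave 11.5 and 6.38, close to those values. Erythroid cells had 9.27 and 8.26, and the 42 control B lineage cells 7.21. Classes of at most 34 cells lay lower in part: T or NK cells had 3.88 and 5.77, neutrophil lineage cells 3.44 and 0.481, and granule progenitors 8.08 and 0.640. Lyz2 itself stood above the endothelial level in neutrophil lineage cells, at 9213 CPM in CIA and 13261 CPM in control. It did so too in granule progenitors, at 3998 and 8521 CPM. The ratio is therefore a poorer measure of free RNA in those classes.

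**Figure D2:**
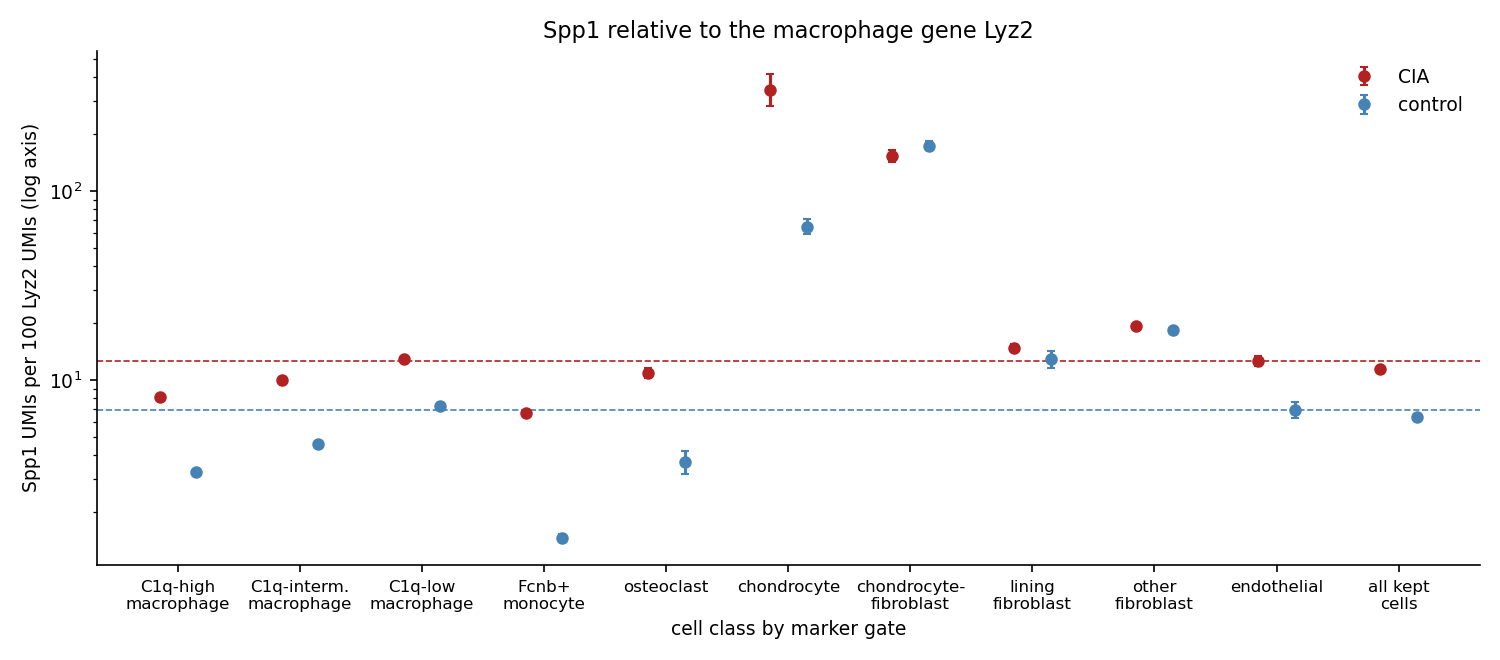
Spp1 UMIs per 100 Lyz2 UMIs by class on a log axis, CIA (red) left of control (blue), with 95% counting intervals and dashed lines at the endothelial ratio of each library, 12.6 for CIA and 6.92 for control. The points of all kept cells, 11.5 and 6.38, lie near those lines, and both chondrocyte gates lie far above them.

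Fibroblasts had far less Spp1 than macrophages, though mostly more than endothelium. Lining fibroblasts, which make lubricin (Prg4), had 180 CPM of Spp1 in 586 CIA and 86.5 CPM in 246 control cells, and 51.5% and 22.0% of them held a thinned UMI. Other fibroblasts had 247 CPM in 3324 CIA and 130 CPM in 2248 control cells, with 53.6% and 24.9% positive. The endothelial shares were 53.4% and 20.3%, and the counting intervals of these shares overlapped between both fibroblast classes and endothelium in each library. The levels separated them further. Other fibroblasts lay above the endothelial 183 and 55.0 CPM by more than counting error in both libraries. Lining fibroblasts did so in the control library, with a lower bound of 78.5 CPM against an upper bound of 60.2 CPM, but not in CIA. Per 100 Lyz2 UMIs other fibroblasts had 19.4 and 18.4 Spp1 UMIs and lining fibroblasts 14.7 (14.0 to 15.4) and 12.9 (11.6 to 14.2), all above the endothelial 12.6 (11.8 to 13.5) and 6.92 (6.29 to 7.61). Only 8 of the 3324 CIA and 4 of the 2248 control cells had 20 or more thinned UMIs, and no lining fibroblast of either library did.

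Chondrocyte-gated cells held a second source of Spp1 that did not follow macrophage RNA. All chondrocyte gates together, defined by cartilage matrix genes such as Col2a1, had 2385 CPM in 68 CIA and 942 CPM in 392 control cells. Per 100 Lyz2 UMIs they had 172 Spp1 UMIs in the CIA and 135 in the control library, against 12.6 and 6.92 in endothelium. Again a small number of cells decided the sum: 6 CIA and 12 control cells had 20 or more thinned UMIs, and 1 CIA cell alone held 35.3% of the class's UMIs. Macrophage markers took at most 0.208% of the UMIs of these 6 CIA cells and at most 0.161% in the 12 control cells, near the endothelial level. Markers of osteoblasts, the bone-forming cells, were frequent in them. At least 2 such markers were present in 5 of 6 CIA and 9 of 12 control cells with high Spp1, against 6 of 62 and 87 of 380 of the remaining chondrocyte-gated cells. Ibsp, the bone sialoprotein of the same gene family as Spp1, stood at 10032 CPM in the 6 CIA cells and 31001 CPM in the 12 control cells, against 186 and 2078 CPM in the rest of the gate. Alpl, the alkaline phosphatase needed for mineralisation, had 1312 and 2434 CPM in the high-Spp1 cells, against 72.8 and 499 CPM in the rest. Bglap, osteocalcin, was not higher in the high-Spp1 cells. It had 55.7 CPM there against 75.7 CPM in the rest of the control gate, and 0 CPM in both parts of the CIA gate. Ibsp, Alpl and Bglap are among the osteoblast markers, and these cells were picked by Spp1 itself, so the values are a description.

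The chondrocyte gate without fibroblast markers rested on 12 CIA cells. Their Spp1 level of 4724 CPM came to 92.5% from 1 cell, while 217 control cells had 471 CPM. Chondrocyte-gated cells that also passed the fibroblast gate had 2130 CPM in 56 CIA cells and 1183 CPM in 175 control cells. A further set of high-Spp1 cells met no gate: 8 control cells had 44695 CPM of the osteoblast gene Bglap, osteocalcin, which only 4 of them carried, and 6 CIA cells had macrophage markers at a median of 3.09% of UMIs.

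Osteoclasts, the multinucleate cells that resorb bone and bind osteopontin, had far less Spp1 RNA than macrophages. Their sum was 576 CPM in 87 CIA and 291 CPM in 29 control cells, and 1 cell held 43.2% and 35.4% of those UMIs. Without that cell the levels were 330 and 191 CPM. The median osteoclast had 198 CPM in the CIA and 83.4 CPM in the control library, and 1 cell in each library had 20 or more thinned UMIs. A thinned UMI was found in 62.1% of CIA osteoclasts (51.0% to 72.3%) and 44.8% of control osteoclasts (26.4% to 64.3%), against 53.4% and 20.3% of endothelial cells. The share thus overlapped that of endothelium in CIA and lay above it in the control library. Per 100 Lyz2 UMIs osteoclasts had 10.9 and 3.68 Spp1 UMIs, not above the endothelial 12.6 and 6.92, but macrophage markers, Lyz2 among them, took 1.43% and 1.60% of their UMIs. The part of macrophage RNA in the osteoclast signal was not tested.

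Spp1 was higher in the CIA library in every class with enough counts, and by more than most genes. A gene was called by size where the ratio was at least 2, its 95% counting interval lay beyond 1.5 and the sums together held at least 100 UMIs. In all macrophages and monocytes the level was 8652 CPM in CIA and 3137 CPM in control cells, a ratio of 2.76 (2.73 to 2.78). Spp1 was called higher there, as were 0.417% of the 9831 genes measured, and 7 genes had a larger ratio. The class medians moved with it, and the share of cells with a thinned UMI was 87.7% in CIA and 62.5% in control macrophages. By subset, the ratio was 2.24 (2.22 to 2.27) in C1q-low macrophages, where 0.386% of genes were called higher. It was 2.44 (2.38 to 2.51) in C1q-intermediate macrophages, where 1.74% were, and 3.14 (3.06 to 3.22) in C1q-high macrophages, where 0.582% were. Among these subsets Fcnb+ monocytes had the highest ratio, 6.42 (6.11 to 6.76). None of the 4357 genes measured in them had a larger one, and 0.689% were called higher. That ratio was 3.29 with stricter gates and 8.65 as a mean over cells, while those of all, C1q-low and C1q-high macrophages stayed above 2 in the alternatives run.

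Other classes gave ratios at low levels of Spp1 or from few cells. In endothelium the ratio was 3.33 (2.98 to 3.72), the highest of 8284 genes, with 0.169% called higher and 1.39% lower. Spp1 per 100 Lyz2 UMIs differed there as it did in the whole library, 12.6 and 6.92 against 11.5 and 6.38. Beyond that, the part of free RNA in the endothelial ratio was not tested. Lining fibroblasts had a ratio of 2.09 (1.88 to 2.32), called higher along with 0.721% of genes, while 2.06% were called lower, and stricter gates gave 1.34. Other fibroblasts had 1.90 (1.83 to 1.97), not called, where 0.281% of genes were higher and 1.39% lower. Osteoclasts had 1.98 (1.70 to 2.31), which was not called, where 0.739% of genes were called higher and 1.85% lower. Stricter gates gave 1.15 in 77 and 25 cells, and a mitochondrial limit of 10% gave 5.15 in 66 and 15 cells. All chondrocyte gates had 2.53 (2.41 to 2.66), called beside 2.55% of genes higher and 4.69% lower. That ratio was 1.78 without the cell of highest count in each library, 4.51 with stricter gates and 7.83 in Leiden clusters, which held 23 CIA and 331 control cells. Taken gate by gate without that cell, it was 1.15 in the chondrocyte gate without fibroblast markers. It was 1.11 in chondrocyte-gated cells that also passed the fibroblast gate. The latter were 56 of 68 cells in CIA and 175 of 392 in control, and the part of this mix in the merged Spp1 ratio was not tested. In chondrocyte gates the scaling also mattered for all genes: 141 were called higher and 259 lower as reported, against 31 and 359 with trimmed mean (TMM) factors.

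Within macrophages, Cd44 and a set of lipid-handling and repair genes were higher where Spp1 was higher. Cells were divided by thinned Spp1 UMIs into ranges of 0 to 1, 2 to 9, 10 to 49 and 50 or more, with 798, 913, 882 and 627 cells in the CIA and 622, 316, 185 and 60 cells in the control library. Levels of other genes were set against totals without Spp1. Depth moved with the ranges: the median was 7613 UMIs in the lowest and 11761 UMIs in the highest range of the CIA library, and 10421.5 and 17372.5 UMIs in the control library. These are ranges of a continuous measure and not cell types.

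Cd44 was found in 56.0%, 65.0%, 74.3% and 85.6% of the thinned CIA cells over the 4 ranges, and in 56.3%, 62.0%, 69.7% and 83.3% of the control cells. Its level was 824 CPM in the highest and 389 CPM in the lowest CIA range, a ratio of 2.12 (2.03 to 2.22), and 690 and 309 CPM in the control library, a ratio of 2.23 (2.05 to 2.42). Both were called higher, beside 1.86% of the genes measured in CIA and 2.43% of those in control macrophages, while 2.16% and 3.11% were called lower. The share thus climbed in the same way in both libraries. Within C1q-low macrophages alone the Cd44 ratio was 2.10 in the control library, called beside 2.5% of genes higher and 2.56% lower, and 1.37 in the CIA library, not called, where 1.01% of genes were higher and 1.46% lower. Outside macrophages the picture was mixed. Among CIA lining fibroblasts Cd44 was found in 59.3% of cells with 2 to 9 Spp1 UMIs and in 56.9% of those with 0 to 1, and among CIA osteoclasts in 79.2% of 24 cells and 91.7% of 60 cells. Among other fibroblasts it was found in 29.3% (25.9% to 33.0%) and 28.0% (26.3% to 29.8%) of CIA cells, but in 40.8% (32.0% to 50.2%) and 25.7% (23.9% to 27.6%) of control cells, where the intervals did not overlap.

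Of 17 lipid-associated macrophage genes often described beside Spp1, 9 were called higher and 1 lower in the highest against the lowest range of the CIA library, and 12 higher and 1 lower in the control library. Of all genes measured, 1.86% were called higher and 2.16% lower in CIA, and 2.43% and 3.11% in control macrophages. The list's median log2 ratio was 1.06 in CIA and 1.63 in control macrophages, while that of all genes was 0.07 and 0.0087. Within C1q-low macrophages 6 of the list were called higher and 0 lower in CIA, and 11 and 0 in control cells. There 1.01% of all genes were called higher and 1.46% lower in CIA, and 2.5% and 2.56% in control cells. Fn1, fibronectin, was at 6864 CPM in the highest and 2678 CPM in the lowest CIA range, and at 2931 and 1369 CPM in the control library. Gpnmb, a lysosomal glycoprotein, was at 3603 and 1838 CPM in CIA, just short of a call, and at 6189 and 1718 CPM in control macrophages. Apoe, the lipid carrier, was the member called lower, at 15556 and 37203 CPM in CIA and 13525 and 29323 CPM in control macrophages. Cd63, a late endosome membrane protein, had 2941 and 1755 CPM in CIA and 3508 and 1656 CPM in control cells.

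Several genes were picked after their values were seen. Lpl, lipoprotein lipase, had 159 and 29.7 CPM in the highest and lowest CIA range and 207 and 26.1 CPM in the control library. Il1rn, the antagonist of the interleukin-1 receptor, had 703 and 155 CPM in CIA and 733 and 214 CPM in control macrophages. Outside the list, the eosinophil chemokine Ccl24 had 224 and 7.01 CPM in CIA and 97.5 and 0.966 CPM in control cells. The complement gene C1qb had 193 and 1363 CPM in CIA and 173 and 673 CPM in control macrophages. C1qb is among the genes that define the macrophage subsets, whose Spp1 levels differed, so its values are not separate from that order. Cd74, the chain that guides antigen-presenting molecules, had 5296 and 16078 CPM in CIA and 3928 and 14227 CPM in control. Lyz2 barely moved, at 73245 and 71571 CPM in CIA and 59183 and 54744 CPM in control.

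**Figure D3:**
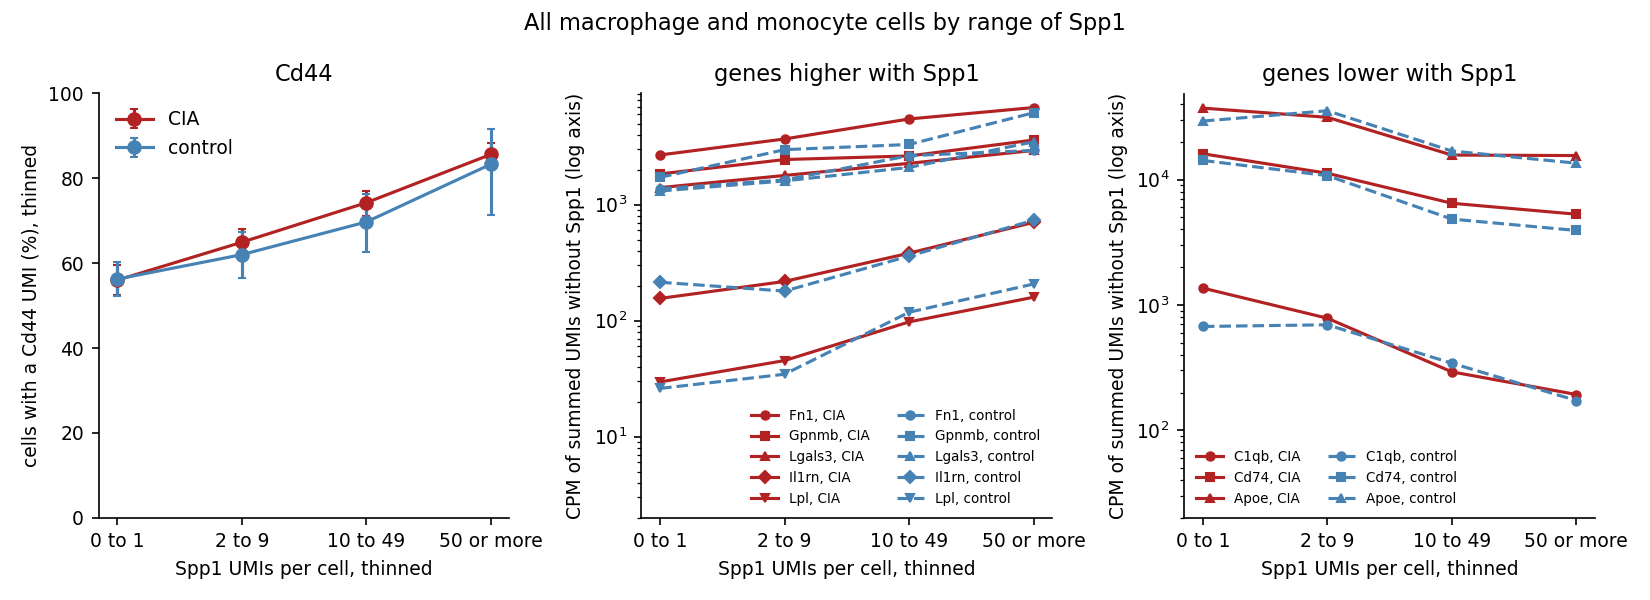
All macrophage and monocyte cells by range of thinned Spp1 UMIs, with the share of cells holding a Cd44 UMI (left, percent with 95% counting intervals), genes that were higher (middle) and genes that were lower (right) with Spp1, as CPM without Spp1 on log axes. Red solid lines are CIA and blue is control. Cd44 climbs to 85.6% of CIA and 83.3% of control cells while C1qb, Cd74 and Apoe are lower in the highest range of both. C1qb is among the genes that define the macrophage subsets pooled here.

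Cd44 was spread over more cell types than Spp1. Its highest sums were in C1q-low macrophages, with 708 CPM (696 to 719) in the CIA and 499 CPM (484 to 516) in the control library. Osteoclasts had 560 CPM (528 to 594) and 464 CPM (414 to 518), and Fcnb+ monocytes 558 CPM (528 to 588) and 408 CPM (383 to 434). The intervals of osteoclasts and Fcnb+ monocytes overlapped in CIA, and those of osteoclasts and C1q-low macrophages overlapped in the control library. C1q-intermediate macrophages followed with 505 and 301 CPM, C1q-high macrophages with 313 and 236 CPM and lining fibroblasts with 223 and 179 CPM. Other fibroblasts had 101 and 87.6 CPM. Endothelial cells had 20.9 CPM in CIA and 17.9 CPM in control, and the 42 control B lineage cells 22.0 CPM. Macrophages and monocytes held 68.2% of the Cd44 UMIs of the CIA and 50.7% of those of the control library, and fibroblasts 21.3% and 29.5%.

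After thinning, Cd44 was found in 85.1% of CIA and 72.4% of control osteoclasts, in 76.1% and 67.1% of C1q-low macrophages, and in 57.3% and 48.0% of lining fibroblasts. Endothelial cells gave 7.05% and 7.76%, at median depths of 8563 and 10776.5 UMIs. The Cd44 signal of macrophages, osteoclasts and both fibroblast classes therefore lay above that of endothelium. Osteoclasts were even, with a variance of 1.46 times the mean in CIA and 1.55 times in control cells. C1q-low macrophages were less so, at 3.71 and 2.74 times the mean, far under their values for Spp1. No more than 25 thinned Cd44 UMIs were found in any C1q-low macrophage of the CIA library, and no more than 14 in the control library. Lining fibroblasts had more Cd44 than other fibroblasts in both libraries, by 223 against 101 CPM in CIA and by 179 against 87.6 CPM in control.

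**Figure D4:**
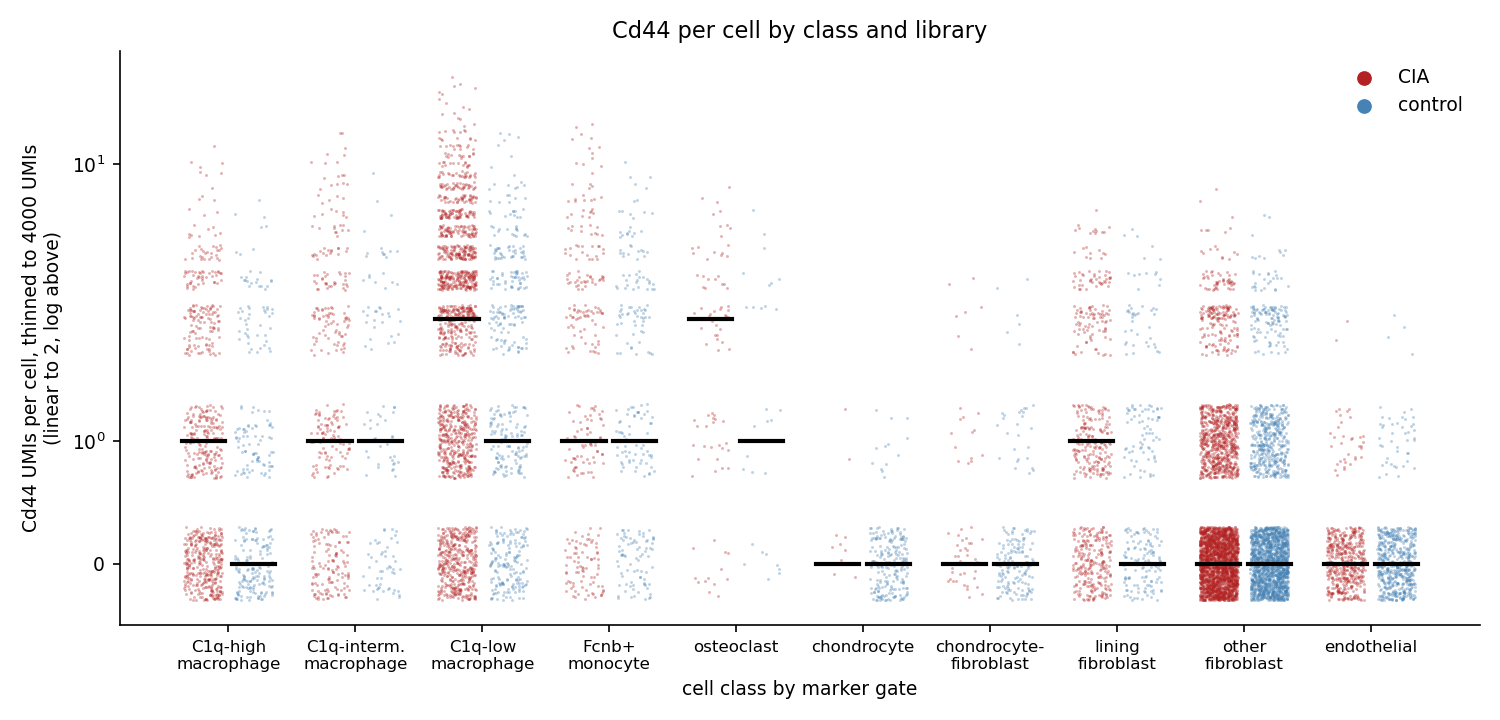
Cd44 UMIs per cell after thinning to 4000 UMIs, by marker-gated class, with CIA cells (red) left of control cells (blue), 1 point per cell with random scatter and a black bar at the median, on an axis that is linear to 2 and logarithmic above. Macrophages, osteoclasts and lining fibroblasts lie above endothelial cells, in which 7.05% of CIA and 7.76% of control cells held a UMI.

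Between libraries Cd44 differed less than Spp1. In all macrophages and monocytes it had 585 CPM in CIA and 393 CPM in control cells, a ratio of 1.49 (1.45 to 1.53) that was not called, and 435 of 9831 genes had a larger one. The ratio was 1.42 (1.37 to 1.47) in C1q-low macrophages, 1.33 in C1q-high macrophages, 1.68 (1.53 to 1.84) in C1q-intermediate macrophages and 1.37 in Fcnb+ monocytes. With stricter gates that of Fcnb+ monocytes was 1.09, in 185 CIA and 160 control cells. Osteoclasts had 1.21 (1.06 to 1.37), lining fibroblasts 1.25 (1.15 to 1.35) and other fibroblasts 1.15 (1.10 to 1.21). In endothelium the interval of the ratio, 0.912 to 1.49, held 1. With the gates as reported, the Cd44 ratio thus lay above 1 by more than counting error in each macrophage class, in osteoclasts and in both fibroblast classes. In none of these did it reach a factor of 2. The one call was in all chondrocyte gates, with 147 CPM in 68 CIA and 59.4 CPM in 392 control cells, a ratio of 2.48 (2.02 to 3.02), beside 2.55% of genes called higher, and Leiden clusters gave 1.77, under the call. The mix of that class differed: cells that also passed the fibroblast gate were 56 of 68 in CIA and 175 of 392 in control. Among those cells alone the Cd44 levels were 160 and 79.9 CPM, a ratio of 2.00 (1.63 to 2.45) that fell just short of the call, where 0.875% of genes were called higher.

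**Figure D5:**
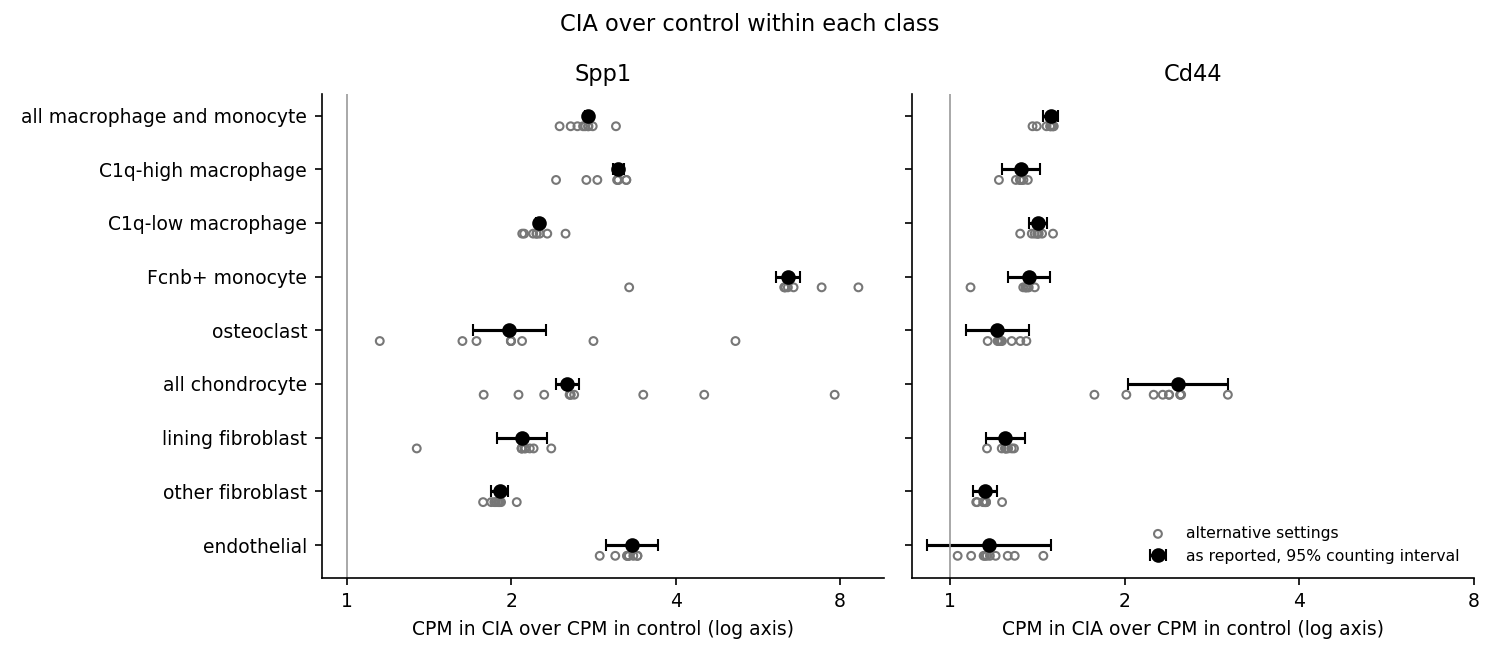
Ratio of CPM in CIA to CPM in control by class for Spp1 and Cd44 on a log axis; black points are the values as reported with 95% counting intervals, and open grey points are the processing alternatives. All points of both genes lie above 1, and Spp1 in osteoclasts and chondrocyte gates spreads most.

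The integrin receptors of osteopontin were not called in either direction in macrophages, osteoclasts, lining fibroblasts or other fibroblasts. Of all genes, 0.417% were called higher and 4.07% lower in macrophages, and 0.739% and 1.85% in osteoclasts. The shares were 0.721% and 2.06% in lining and 0.281% and 1.39% in other fibroblasts, so the lack of calls among so few receptors is near the background. Of 9 listed, 5 were measured in macrophages and 4 in osteoclasts, with a median log2 ratio of 0.31 in macrophages, where that of all genes was 0.10, and of 0.49 in osteoclasts, where it was 0.00070. Itgav, the alpha v chain, had 112 CPM in CIA and 74.9 CPM in control osteoclasts, and 18.1 and 16.7 CPM in macrophages. Itgb3, the beta 3 chain and one of the osteoclast gate's own markers, had 90.8 and 58.7 CPM in osteoclasts and 1.59 and 1.5 CPM in macrophages. Itgb1, the beta 1 chain, was found more widely, with 424 and 323 CPM in osteoclasts, 319 and 220 CPM in macrophages and 542 and 476 CPM in lining fibroblasts. Between macrophages and osteoclasts, Spp1 was higher in macrophages and the alpha v chain in osteoclasts, while Cd44 was high in both. The beta 3 chain was also higher in osteoclasts, but their gate selects for it, so its level there adds nothing.

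Enzymes that cut or modify osteopontin gave few calls. Among 8 measured in macrophages 1 was called higher and 2 lower in CIA, beside 0.417% and 4.07% of all genes. Mmp9, a gelatinase, had 20.1 CPM in CIA and 8.76 CPM in control macrophages, and 10829 and 3915 CPM in osteoclasts, whose gate uses it. Endothelial cells had 26.8 CPM in CIA and 13.4 CPM in control, so the macrophage level of Mmp9 was not above theirs. The part of free RNA in the Mmp9 call was not tested. Plau, the urokinase, was called lower, at 19.8 CPM in CIA and 63.5 CPM in control macrophages, and so was Mmp7, at a ratio of 0.468. Mmp12, the macrophage elastase, had 314 and 395 CPM in all macrophages, but 167 and 31.1 CPM in Fcnb+ monocytes, where it was called higher. Mmp3, stromelysin, was far more abundant in lining fibroblasts, at 16960 CPM in CIA and 11357 CPM in control. Ibsp, the other family member with counts enough, was lower in all chondrocyte gates, at 945 CPM in CIA and 3070 CPM in control. Ibsp was also lower in endothelium, at 1.20 and 13.7 CPM, and in macrophages, at 0.765 and 10.4 CPM, so its level outside the chondrocyte gates differed between libraries in the same direction. The part of free RNA in this was not tested.

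Transcription factors known to act on Spp1 were called lower or not called. In macrophages 0 of 9 measured were called higher and 3 lower, beside 0.417% and 4.07% of all genes. Those 3 were Jun, Fosl1 and Bhlhe40, at ratios of CIA to control of 0.421, 0.247 and 0.326. Jun, a component of AP-1, had 942 CPM in CIA and 2234 CPM in control macrophages. Fos, its partner, was not called there, at 1026 and 1712 CPM. Spi1, the myeloid factor PU.1, had 364 and 339 CPM, and Hif1a, the oxygen-sensing factor, 86.8 and 89.9 CPM. Jun was also lower in endothelium, at 411 and 1605 CPM, and in lining fibroblasts, at 293 and 895 CPM. The part of tissue handling in this was not tested. Of the 17 lipid-associated genes, 2 were called higher and 2 lower in CIA macrophages, against the same shares of all genes. Fn1 had 4723 CPM in CIA and 1790 CPM in control macrophages, Arg1, arginase, 70.9 and 34.4 CPM, Plin2, a lipid droplet protein, 78.0 and 178 CPM, and Vegfa, a vessel growth factor, 19.6 and 81.0 CPM. The call of Arg1 was lost with TMM factors, at a ratio of 1.92.

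Around CD44, most listed genes differed little between libraries. Of 12 partners and cleaving enzymes measured in macrophages, 0 were called higher and 1 lower, where 0.417% and 4.07% of all genes were, so a single lower call is near the background. That gene was Ezr, ezrin, which links CD44 to the cytoskeleton, with 154 CPM in CIA and 310 CPM in control macrophages, while the related Msn, moesin, had 553 and 407 CPM. Cd74, a CD44 partner in signalling by the cytokine MIF, had 9285 and 10696 CPM. Of 8 measured hyaluronan-binding proteins and CD44 ligands, 0 were called higher and 2 lower in macrophages, against those same shares, and these were the cartilage genes Hapln1 and Acan. The cartilage collagen gene Col2a1 had 5.95 CPM in CIA and 123 CPM in control macrophages. In endothelium, where 1.39% of genes were called lower, Hapln1 was too, at a ratio of 0.242, while Acan was not. The part of free RNA in the calls of Hapln1 and Acan was not tested. Vcan, the hyaluronan-binding proteoglycan versican, had 432 and 188 CPM in C1q-low macrophages and was called higher there. Of 5 hyaluronan synthesis and breakdown genes measured in lining fibroblasts, 0 were called, where 0.721% of all genes were higher and 2.06% lower, although Has1, Ugdh and the binding protein Tnfaip6 stood higher there than in any other single class. Has1, a synthase, had 543 CPM in CIA and 386 CPM in control lining fibroblasts, Ugdh, which makes its substrate, 659 and 394 CPM, and Tnfaip6, a hyaluronan-linking protein, 2140 and 1427 CPM. Of 3 splicing factors measured in macrophages, Tra2b was called lower, as were 4.07% of all genes, at 86.0 and 187 CPM, and the other two were not called.

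Across 23 profiles of class and library, the genes most like Spp1 by Pearson r of log2(CPM + 10) included Cd86 (r = 0.873), Trim55 (0.873), Folr2 (0.869) and AABR07035722.1 (0.867). Cd44 was most like Prdx5 (0.895), S100a4 (0.882), Fam20c (0.867), Lgals3 (0.864) and Mitf (0.859). Spp1 and Cd44 had r = 0.663 with each other. These profiles share 2 libraries and their free RNA, 10227 genes were compared, and the values are a description.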

How the data were processed

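Droplet single-cell RNA counts of 1 CIA and 1 control library were used as the authors deposited them: whole-number UMI counts per gene and cell barcode, on mRatBN7.2 per the submitters' processing notes. Which aligner, counter or cell filter was applied before deposit is not given in the sources used here. Barcodes in the deposited files have 24 bases in 3 blocks of 8, although the labels name a Chromium kit. Both genes, the gene lists and the marker lists were chosen with earlier results of these data known, and the fibroblast subset markers came from those results.

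Cells with under 200 genes (none) or over 20% mitochondrial UMIs (47 CIA, 45 control) and doublets called by scrublet (166, or 1.94%, CIA and 62, or 1.15%, control) were left out. The library totals were 105752977 UMIs for CIA and 76927821 for control. A cell entered a class when enough of its markers had 2 or more UMIs: 7 of 13 for macrophages, 6 of 12 for osteoclasts, 6 of 16 for chondrocytes, 7 of 13 for fibroblasts (lining: also 3 of 6) and 6 of 13 for endothelium. These limits were set at the valleys of the marker distributions after seeing them. Class names stand for these gates. UMIs were summed per class and library over genes listed for both libraries. Intervals are 95%: exact Poisson for levels, Clopper-Pearson for shares and exact conditional for ratios. No p-value was computed. Named list genes come from the 4 of highest level in a class and from those called, which were chosen after their values were seen. Not every called gene is named. Sums were checked on simulated data. Alternatives were TMM factors (edgeR 4.0.16), removal of the 50 most abundant genes, Leiden clusters made without Spp1 and Cd44, stricter gates, a mitochondrial limit of 10%, doublets kept, means over cells, removal of the top cell and, added after seeing the data, removal of shared barcodes and of cells rich in macrophage markers. Python 3.11.15, scanpy 1.11.5, scipy 1.17.1 and R 4.3.3 were used. Promoters came from RefSeq tables of GRCr8, which held both genes. One gene among those most like Spp1 is not reported here.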

Additional observations from a re-analysis of the deposited data

How the results depend on the processing

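All 20 ratios of CIA to control, 10 classes for each gene, stayed above 1 under every alternative run, and no ratio changed direction. For Spp1 in all macrophages and monocytes (2.76 as reported) the values outside the counting interval were 2.57 with TMM factors, 2.71 with Leiden clusters, 2.45 with stricter gates, 2.64 with doublets kept, 3.11 as a mean over cells, 2.82 without the top cell and 2.73 without shared barcodes. In osteoclasts (1.98) Spp1 gave 2.83 with Leiden clusters, 1.15 with stricter gates, 5.15 at a mitochondrial limit of 10% and 1.63 as a mean over cells. In all chondrocyte gates (2.53) it gave 2.06 with TMM factors, 2.30 without the 50 most abundant genes, 7.83 with Leiden clusters, 4.51 with stricter gates, 3.49 as a mean over cells and 1.78 without the top cell. In endothelium (3.33) Leiden clusters gave 2.90. In all fibroblasts (1.88) Spp1 gave 1.52 with Leiden clusters, 1.79 with stricter gates, 1.78 as a mean over cells and 2.01 without the top cell. Cd44 gave 1.39 with TMM factors and 1.41 with stricter gates in macrophages (1.49), 2.01 with TMM factors and 1.77 with Leiden clusters in chondrocyte gates (2.48), and 1.21 as a mean over cells in fibroblasts (1.26). The cause of these shifts was not tested. Shares of cells followed the depth and the limit used: without thinning, then with at least 5 thinned UMIs, Spp1 was found in 97.5% and 69.5% of CIA and 86.1% and 43.1% of control C1q-low macrophages, and in 81.4% and 0.391% of CIA and 47.7% and 0% of control endothelial cells. The same limits gave Cd44 in 91.4% and 19.0% of CIA and 88.8% and 9.59% of control C1q-low macrophages, and in 19.2% and 0% of CIA and 20.6% and 0% of control endothelial cells. TMM factors shifted the median log2 ratio of all genes to -0.020 in chondrocyte gates, against 0.28 as reported, to -0.0071 in macrophages, against 0.096, and to 0.00057 in endothelium, against 0.10. No paired analysis was possible because each group has 1 library. Classes of 12 to 87 cells limit the chondrocyte and osteoclast values most, where a single cell can hold over 35.3% of the Spp1 UMIs.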

Other observations

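Dividing macrophages, taken as cells with at least 3 cell-cycle markers, had 6857 CPM of Spp1 in 286 CIA cells and 3435 CPM in 97 control cells. The other macrophages had 8920 CPM in 2934 CIA and 3096 CPM in 1086 control cells. In the CIA library the summed Spp1 level was lower in the dividing cells of each of the 4 subsets by more than counting error. The share of cells with a thinned Spp1 UMI was instead higher in the dividing cells of each. For all CIA macrophages it was 93.7% of dividing and 87.1% of other cells. Dividing C1q-high, C1q-intermediate and Fcnb+ cells numbered only 25, 34 and 23, and counting error leaves out the spread between cells. The control library was mixed: C1q-low macrophages had 4154 CPM in 56 dividing and 4693 CPM in 455 other cells, against the direction of the sum, while C1q-high macrophages had 2739 CPM in 13 dividing and 1788 CPM in 286 other cells. Cd44 had 636 CPM in dividing and 578 CPM in other CIA macrophages, and 530 and 374 CPM in control macrophages. Fcnb+ monocytes went the other way in both libraries, with 445 CPM in 23 dividing and 577 CPM in 278 other CIA cells, and 156 CPM in 24 dividing and 448 CPM in 221 other control cells. In C1q-low macrophages Cd44 had 683 and 712 CPM in CIA, with overlapping intervals, and 712 and 458 CPM in control cells.

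In Fcnb+ monocytes of the CIA library Cd44 had 318, 426, 858 and 1242 CPM over the 4 Spp1 ranges, from lowest to highest. The highest range held 39 cells. Cd44 was found in 94.9% of them and in 66.4% of the 143 cells of the lowest range. The share spanned more in CIA C1q-high macrophages, with 84.9% in the highest and 44.9% in the lowest range. It also did so in CIA C1q-intermediate macrophages, with 84.0% and 51.7%. Only 4 control Fcnb+ monocytes reached the highest range, so the libraries could not be compared there.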
